A study of Mus musculus with 9 samples.

Results

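The forkhead transcription factors of the mouse genome were followed in H3K27me3 maps of bone marrow progenitors. The family was taken as every protein-coding gene whose symbol is Fox with a single letter from a to s and digits. Of 21883 protein-coding genes on the mm10 autosomes and the X and Y chromosomes, 44 such genes were matched. Chromatin came from uncultured lineage-negative, c-Kit-positive cells, a mixture of hematopoietic stem and progenitor cells, of female C57BL/6 mice that had a transplant and then received vehicle (VEH) or metformin (MET) for 1 month. Cells labelled WT were Dnmt3a+/+ and cells labelled RH were Dnmt3a fl-R878H/+, and both genotypes were on Mx1-cre, a Cre gene under an interferon-inducible promoter that is active in blood cells and in other tissues. Whether Cre was induced in the vehicle and metformin groups alike, and which cells of the marrow came from donor or host, is not given in the sources used here. Each of the 4 groups had 2 libraries, which the labels call replicates without naming separate animals, so the spread between them may be technical. The series title places the maps in the question of whether metformin lowers the competitive advantage of R878H progenitors.

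Forkhead proteins share a winged-helix domain that binds DNA. Foxo proteins are held in the cytoplasm when insulin or growth factor signalling activates the kinase Akt, and they switch on genes of cell cycle arrest, stress resistance and apoptosis when that signal falls. Foxp proteins act mostly as repressors in lymphocytes, lung and brain, whereas the Foxa, Foxc, Foxf, Foxl and similar members specify endoderm, mesenchyme, eye, ear and gonad. H3K27me3 is laid down by Polycomb repressive complex 2, which is known for covering CpG-rich starts of developmental regulators in cells that do not use them.

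The members were sorted by general knowledge of where they act into 5 blood-expressed Foxo and Foxp genes (Foxo1, Foxo3, Foxo4, Foxp1 and Foxp4), 3 other Foxo and Foxp genes (Foxo6, Foxp2 and Foxp3), 7 broadly expressed genes (Foxj2, Foxj3, Foxk1, Foxk2, Foxm1, Foxn2 and Foxn3), 3 genes of early embryo or germ cells (Foxh1, Foxr1 and Foxr2) and 26 lineage genes of other tissues. Expression was not measured in these libraries. The lists were chosen with earlier results of these data known, so differences between roles are description and no independent support. A member counted as called when at least 1 bp of its gene span lay in an interval, a stretch that the authors listed as marked in that library. Libraries held 11620 to 16879 intervals. The library RH VEH 1 stood lowest in interval number, in covered length (80.0 Mb against 122 to 186 Mb in the others) and in the height of its summits.

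Start regions differed in CpG content as well as in the mark. Of the 44 members, 28 had a start window in the RefSeq-derived table on GRCm38.p6, the assembly of mm10, with 33 windows of 300 bases in all. Below, the 250 bases before the start are shown for 6 members that span the range, with CpG dinucleotides in capitals, 5′ to 3′ on the gene's strand. Foxc1, a regulator of mesenchyme and eye, and Foxk2, a broadly expressed member, are both CpG-rich and stand at opposite ends of the calls. Foxo1 and Foxo3 are the pair of Foxo genes with different calls, the Foxp1 window was called in WT libraries alone, and Foxi1, a gene of inner ear and kidney ion transport, is CpG-poor.
Foxc1: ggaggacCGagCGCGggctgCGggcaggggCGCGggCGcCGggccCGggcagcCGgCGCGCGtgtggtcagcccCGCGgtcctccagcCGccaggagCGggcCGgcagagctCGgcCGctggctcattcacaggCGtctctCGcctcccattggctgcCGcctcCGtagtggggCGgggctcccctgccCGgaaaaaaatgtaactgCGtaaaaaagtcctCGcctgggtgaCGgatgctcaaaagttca
Foxk2: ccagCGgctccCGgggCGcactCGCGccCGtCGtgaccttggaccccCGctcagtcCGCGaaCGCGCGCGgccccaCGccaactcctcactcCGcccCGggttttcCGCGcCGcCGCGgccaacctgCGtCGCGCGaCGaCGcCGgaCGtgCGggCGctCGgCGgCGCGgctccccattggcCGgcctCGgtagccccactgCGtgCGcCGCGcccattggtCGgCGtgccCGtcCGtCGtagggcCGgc
Foxo1: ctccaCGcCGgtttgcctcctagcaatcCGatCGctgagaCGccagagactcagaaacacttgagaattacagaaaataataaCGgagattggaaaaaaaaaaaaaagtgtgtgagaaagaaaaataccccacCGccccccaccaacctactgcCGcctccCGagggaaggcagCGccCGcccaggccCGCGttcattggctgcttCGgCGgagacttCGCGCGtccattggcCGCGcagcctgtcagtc
Foxo3: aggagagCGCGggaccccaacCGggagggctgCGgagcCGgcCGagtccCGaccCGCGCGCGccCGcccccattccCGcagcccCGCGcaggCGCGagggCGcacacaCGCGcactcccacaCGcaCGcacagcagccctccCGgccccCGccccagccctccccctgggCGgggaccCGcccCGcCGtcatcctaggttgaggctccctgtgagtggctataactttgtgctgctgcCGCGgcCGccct
Foxp1: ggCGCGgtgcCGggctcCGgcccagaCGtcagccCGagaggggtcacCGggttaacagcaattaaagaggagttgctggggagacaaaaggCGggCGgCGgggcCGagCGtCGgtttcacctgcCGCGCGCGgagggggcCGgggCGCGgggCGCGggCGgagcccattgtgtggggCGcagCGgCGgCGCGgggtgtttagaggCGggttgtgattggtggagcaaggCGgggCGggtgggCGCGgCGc
Foxi1: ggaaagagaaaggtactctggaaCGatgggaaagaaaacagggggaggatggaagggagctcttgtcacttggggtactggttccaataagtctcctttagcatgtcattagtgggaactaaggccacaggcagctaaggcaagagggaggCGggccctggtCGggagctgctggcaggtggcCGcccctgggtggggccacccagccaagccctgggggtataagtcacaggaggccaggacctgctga
These stretches lie at chr13:31806396-31806645 (Foxc1, plus strand), chr11:121259737-121259986 (Foxk2, plus strand), chr3:52268087-52268336 (Foxo1, plus strand), chr10:42276696-42276945 (Foxo3, minus strand), chr6:99028299-99028548 (Foxp1, minus strand) and chr11:34208090-34208339 (Foxi1, minus strand). Over the whole 300-base windows, Foxc1 holds 32 CpG and was called in 8 libraries, whereas Foxk2 holds 59 and was called in 0. Foxo1 holds 31 and was called in 8, and Foxo3 holds 35 and was called in 0. The Foxp1 window holds 44 and was called in 4, and that of Foxi1 holds 6 and was called in 6.

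Across the family, 28 of 44 members were called in all 8 libraries, 7 in 1 to 7 libraries and 9 in none. Among all protein-coding genes, 24.8% were called in all 8, 14.4% in 1 to 7 and 60.7% in none. At least 1 library called 35 members, against 39.3% of all genes, and exactly 1 library called 3 members (Foxn1, Foxr1 and Foxs1), against 3.62%. Calls differed between roles, most plainly between the lineage and the broadly expressed genes. All 8 libraries called 23 of the 26 lineage genes, and no library called any of the 7 broadly expressed genes. Of the blood-expressed Foxo and Foxp genes, Foxo1 and Foxp4 were called in all 8, Foxp1 in 5, Foxo4 in 4 and Foxo3 in none.

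**Figure D1:**
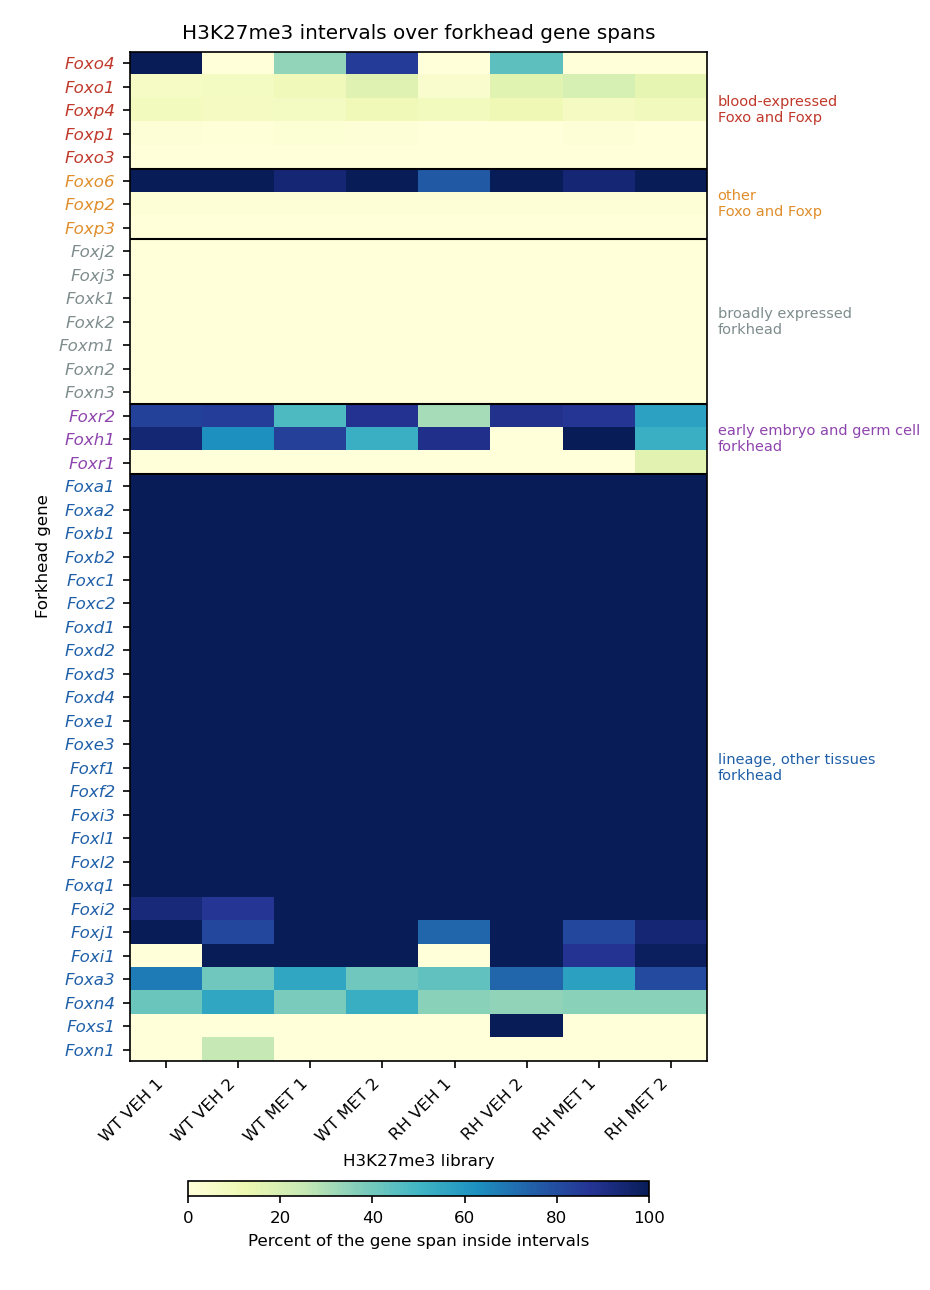
Percent of each forkhead gene span that lay inside H3K27me3 intervals, with 1 row for each gene shown and 1 column for each of the 8 libraries, grouped by role and ordered by mean within a role. Lineage genes are filled at 100% in most cells of the map, broadly expressed genes are at 0% throughout, and the long Foxo and Foxp genes have low values because only short stretches of their spans are marked.

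The extent of the mark was measured as percent of the gene span inside intervals. The median over members of this percent, averaged over the 8 libraries, was 100% for the lineage genes, 66.7% for the genes of early embryo and germ cells, 8.84% for the blood-expressed Foxo and Foxp genes, 1.26% for the other Foxo and Foxp genes and 0% for the broadly expressed genes, beside 0% for all genes. Percent covered depends on gene length, and the roles differ in it. The median span was 3.24 kb for the lineage genes (1.31 to 29.2 kb) and 81.8 kb for the blood-expressed genes (6.61 to 597 kb). Within genes of the lineage members' range of spans, 21.3% of 12226 were called in all 8 libraries and 4.43% lay wholly inside intervals in all 8. Within genes of the broadly expressed members' range, 28.7% of 12199 were called in all 8. For the blood-expressed members' range it was 28.3% of 15634. These ranges are wide, so they do not match the genes to the members in length.

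Foxo1, which restrains proliferation and supports early B cell stages, lies at chr3:52268337-52350109 (mm10). Its span was covered to 5.95% and 7.17% in WT VEH 1 and 2, 9.86% and 17.0% in WT MET, 3.99% and 16.7% in RH VEH, and 20.1% and 14.8% in RH MET. An interval over the gene's start was present in all 8 libraries, with summit heights of 16 to 54. Summit height is the authors' whole-number score and has no stated unit. A second, lower interval 66.3 to 81.1 kb into the span was present in 6 libraries with heights of 10 to 19, and it was missing in WT VEH 1 and RH VEH 1, the pair of libraries with the fewest intervals. Both WT MET values of percent covered exceeded both WT VEH values, while the RH groups overlapped. The metformin difference averaged over genotypes was 6.97 ± 3.73 percentage points (SE; limma, Benjamini-Hochberg adjusted p = 0.931), and it did not pass the test.

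Foxo3, the member best known for keeping hematopoietic stem cells quiescent, lies at chr10:42181845-42276695 and carried no interval in any library. The nearest interval was 160 to 272 kb away. Its start window is CpG-rich, as the printed sequence shows, and so differs from that of Foxo1 in calls and not in that feature.

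Foxo4, at chrX:101254261-101260873, was covered to 100% and 0% in WT VEH 1 and 2, 34.4% and 84.9% in WT MET, 0% and 44.5% in RH VEH, and 0% in both RH MET libraries. Values differed as much within a group as between groups. Its summits were low, at 10 to 16, and its merged region of 113 kb also spans Il2rg, Med12 and Nlgn3. Over all X genes, 23.0% (RH VEH 1) to 48.0% (WT MET 2) were called in a library, against 27.4% to 33.4% of other genes. The X share was the higher in every library except RH VEH 1. Whether the calls at Foxo4 follow this share was not tested. In the 4 libraries without a call, the nearest interval began 1.93 to 3.53 kb away. The mean difference between genotypes, RH minus WT, was -43.7 ± 28.8 points (SE; limma adjusted p = 0.779).

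Foxo6, a Foxo gene expressed mainly in brain and without a known part in blood, was covered to 76.2% to 100% of its 20.2 kb span in all 8 libraries. The lowest value was in RH VEH 1, and the highest summits reached 50 to 111.

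Foxp1, which is needed for early B cell development and T cell quiescence, is a gene of 597 kb at chr6:98925342-99522746 with 3 start windows in the RefSeq table. Intervals of 2.4 to 5.2 kb were found only over those windows. The window at chr6:99028249-99028548 was called in WT VEH 1, WT VEH 2, WT MET 1 and WT MET 2, with heights of 14, 14, 21 and 16, and in no RH library. Of the 6891 windows called in at least 1 library, 0.218% were called in all 4 WT and no RH libraries, and 0.0435% showed the reverse. The window at chr6:99266466-99266765 was called in WT VEH 1, both WT MET libraries and RH MET 1. The window at chr6:99520944-99521243 was called in both WT MET libraries and RH MET 1. RH VEH 1, RH VEH 2 and RH MET 2 had no interval anywhere in the span, and the nearest one was 142 to 143 kb beyond it. These heights lie close to the median height of each library's intervals, which was 12 to 17. The genotype difference in percent covered, RH minus WT, was -0.98 ± 0.37 points (SE; limma adjusted p = 0.744) and did not pass the test.

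Foxp4, which acts in lung, gut and T cells, lies at chr17:47867133-47924632 and was covered to 8.75% and 7.71% in WT VEH, 7.07% and 10.3% in WT MET, 8.75% and 11.3% in RH VEH, and 7.71% and 9.16% in RH MET. All groups overlapped. The interval at its start end was present in all 8 libraries with heights of 32 to 71, higher than those of Foxo1 in every library. In WT MET 1 and RH MET 2 it stopped short of the start window, which was therefore called in 6 libraries although the gene was called in 8. In 4 libraries a second interval, with heights of 10 to 15, reached the other end of the span by 0.067 to 1.07 kb.

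Foxp2, known for its part in vocal learning circuits, is a gene of 541 kb that was covered to 1.01% to 1.38% in all 8 libraries. An interval with heights of 25 to 53 lay over the lower end of the span, and another with heights of 8 to 18 lay about 282 to 288 kb into it. The summit of the first interval sat 0.756 to 2.95 kb outside the span in the 4 vehicle libraries and 0.156 to 0.508 kb inside it in the 4 metformin libraries. This shift in position was seen after the values were inspected. It was not tested, and how many other genes show one was not counted. Foxp3, the defining factor of regulatory T cells, had no interval in any library, and the nearest was 5.48 to 11.8 kb away.

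**Figure D2:**
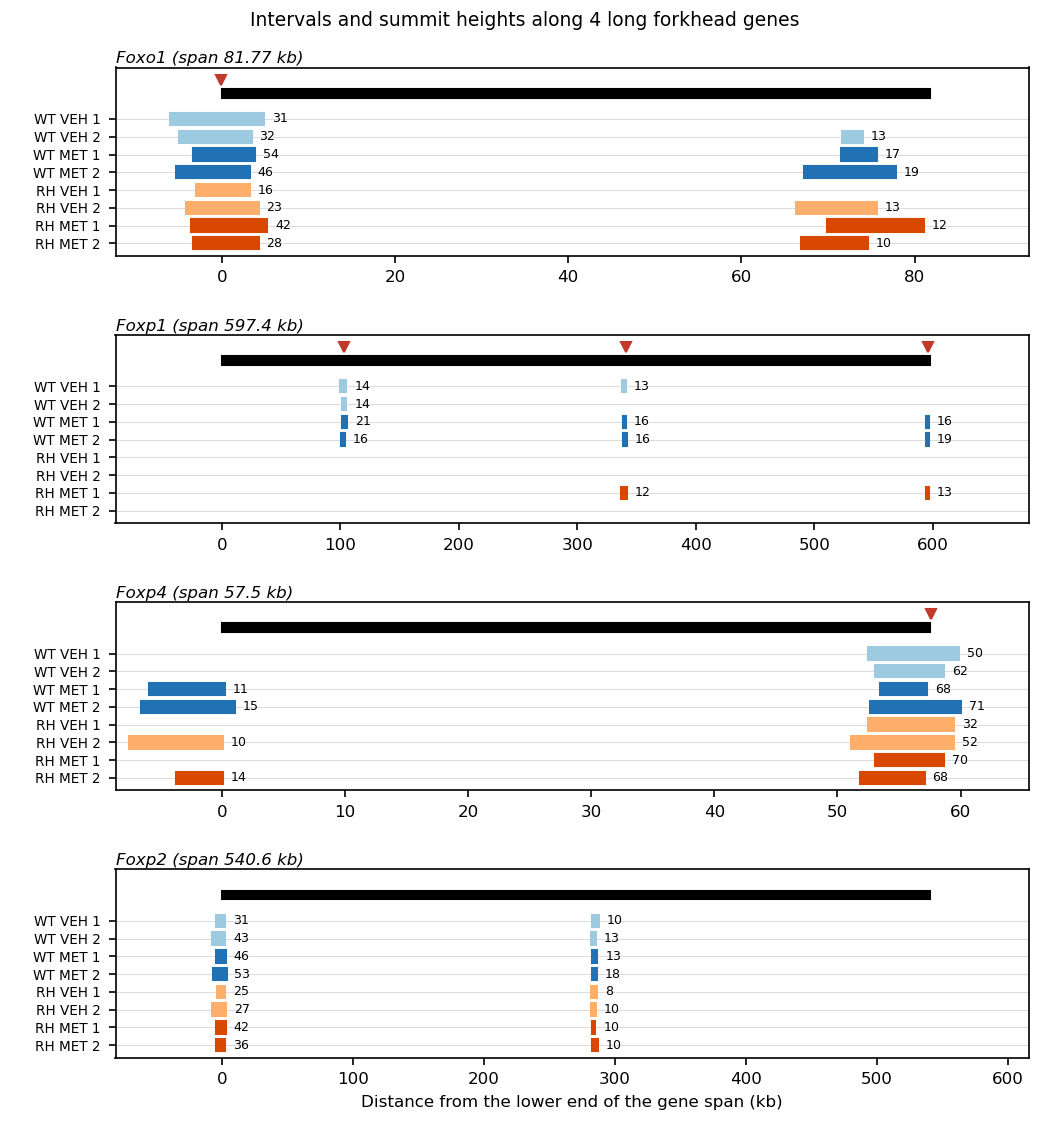
Intervals of each library (bars, coloured by group) along Foxo1, Foxp1, Foxp4 and Foxp2, in kb from the lower end of each gene span (black bar), with summit height as a number beside each bar and RefSeq start windows as red triangles where the table holds them. Foxo1 and Foxp4 have an interval at the start in all 8 libraries, and Foxp1 has short intervals over its 3 start windows, the first of them in the 4 WT libraries.

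The 7 broadly expressed members carried no interval in any library. They include Foxm1, which drives mitotic genes, Foxk1 and Foxk2, which repress autophagy and steer glycolysis, and Foxn3, a checkpoint-linked repressor. Foxm1 came closest, with an interval 4.99 to 6.19 kb away. For Foxk2 the distance was 73.5 to 76.5 kb and for Foxn3 57.7 to 61.5 kb. Of the 4 start windows in the table for these genes, 3 were CpG-rich by the criterion of an observed over expected CpG ratio of at least 0.6 and a GC content of at least 50%. These hold 37 to 59 CpG, more than any lineage window, and none was called.

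Among the 26 lineage genes, 18 lay wholly inside intervals in all 8 libraries, as 2.7% of all genes did. These were Foxa1, Foxa2, Foxb1, Foxb2, Foxc1, Foxc2, Foxd1, Foxd2, Foxd3, Foxd4, Foxe1, Foxe3, Foxf1, Foxf2, Foxi3, Foxl1, Foxl2 and Foxq1, which cover liver and gut (Foxa), kidney stroma (Foxd1), neural crest (Foxd3), thyroid (Foxe1), lens (Foxe3), lung and gut mesenchyme (Foxf1, Foxl1), ear and pharynx (Foxi3), ovary (Foxl2) and hair (Foxq1). All 12 CpG-rich start windows that the table holds for lineage genes were called in all 8 libraries. Among all CpG-rich windows 24.7% were called in all 8, and among windows of any kind 19.3%. Of the 7 lineage windows that were not CpG-rich, 5 were called in all 8 as well.

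**Figure D3:**
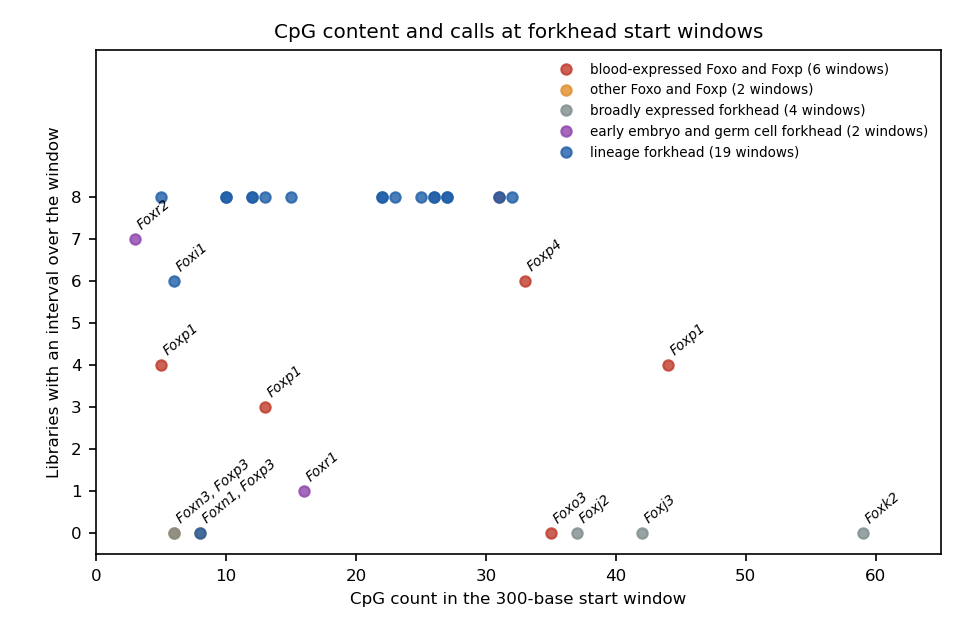
Number of libraries, of 8, with an interval over each of the 33 RefSeq start windows of forkhead genes, against the CpG count of the 300-base window, coloured by role. The windows called in all 8 libraries hold 5 to 32 CpG, and the windows of Foxo3, Foxj2, Foxj3 and Foxk2, called in 0 libraries, hold 35 to 59. The other windows called in 0 libraries, those of Foxn1, Foxn3 and Foxp3, hold 6 to 8.

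The motif GTAAACA, or its reverse complement TGTTTAC, to which forkhead proteins are known to bind, was found in 1 of the 33 windows (3.03%), that of Foxa1. Among all 21262 windows 3.01% hold it. A match is a run of letters and no measure of binding.

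The marked domains over lineage genes were wide and high. Among genes called in all 8 libraries, the median over genes of the highest summit height, averaged over libraries, was 79.5 for the 23 lineage members, 73.3 for all 28 members and 40.3 for all 5436 genes. The lineage members' highest summits stood at a median percentile of 97.4 among the intervals of their library, against 82.6 for all genes. Their intervals were 26.9 kb wide in the median, against 13.0 kb. Foxd2, a mesenchymal regulator, had the highest mean of the family at 101, with heights of 99 and 116 in WT VEH, 127 and 129 in WT MET, 43 and 71 in RH VEH, and 117 and 105 in RH MET. Both RH VEH values lie below the other 6, as they do in 17 of the 28 members and in 40.5% of all 5436 genes. Foxo1 at a mean of 34.0 and Foxp2 at 37.9 lay below the median of all genes, as did the lineage gene Foxi2, and Foxr2 was the lowest at 13.3.

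**Figure D4:**
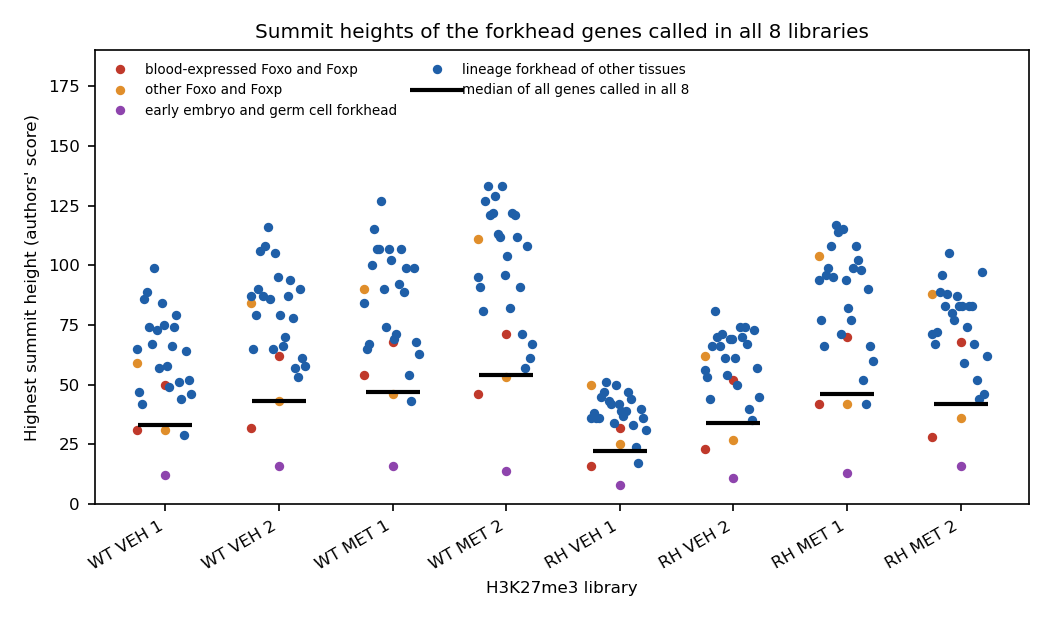
Highest summit height, the authors' score, of each of the 28 forkhead genes called in all 8 libraries, by library and role, with the median over all 5436 genes called in all 8 as a black line. Most lineage genes lie above the line in every library, Foxr2 lies below it, and the whole distribution is lowest in RH VEH 1, where the line is at 22.

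Neighbouring members did not always share a domain. On chromosome 8, Foxc2 and Foxl1, 8.79 kb apart, were spanned by a single interval in all 8 libraries, so their calls and heights are not independent. Foxf1, 28.0 kb below Foxc2, had a separate interval in all 8 libraries, with 7.6 to 14.8 kb uncovered between them. On chromosome 13, Foxq1, Foxf2 and Foxc1 each had an interval of its own, with 16.4 to 35.2 kb uncovered between the first pair and 125 to 158 kb between the second. On chromosome 4, Foxd2 and Foxe3 were separated by 8.6 to 11.8 kb without an interval in every library.

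**Figure D5:**
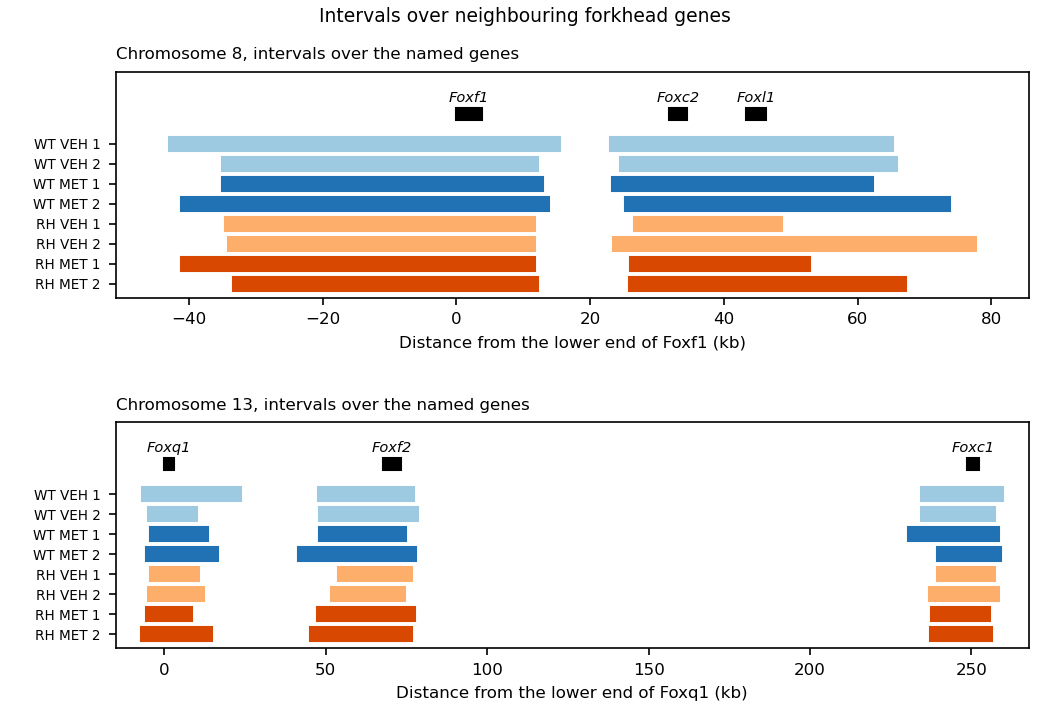
Intervals over neighbouring forkhead genes on chromosomes 8 and 13 in each library (bars, coloured by group), in kb from the lower end of Foxf1 or Foxq1, with gene spans in black. A single interval covers Foxc2 and Foxl1 in all 8 libraries, and every other neighbour pair shown has an uncovered gap in all 8.

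Other lineage genes were covered in part or in some libraries. Foxi2 was covered to 93.2% and 87.0% in WT VEH and to 100% in the other 6 libraries. Foxj1, the regulator of motile cilia, was covered to 73.0% to 100%, and Foxa3, a liver and gut factor, to 40.4% to 80.5%. The last pair varied as much within groups as between them.

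Foxi1 was called in 6 libraries, with 87.7% to 100% covered there and heights of 8 to 14. It was at 0% in WT VEH 1 and RH VEH 1, the pair with the fewest intervals. Its heights stood at a percentile of 4.06 to 41.0 among the intervals of their library. Foxn1, the factor of thymic epithelium that is mutated in nude mice, was covered to 25.3% in WT VEH 2 alone, by an interval of height 11 that did not reach its start window. Foxs1, found in pericytes and sensory neurons, was covered to 100% in RH VEH 2 and 0% elsewhere. That interval, 34.2 kb wide with height 48, lies over the neighbours Dusp15 and Ttll9. The other 7 libraries had an interval 1.59 to 4.99 kb from Foxs1 that ended short of it.

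Foxn4, which acts in retina and spinal cord, was the member whose percent covered separated the genotypes. It was covered to 41.6% and 55.4% in WT VEH, 38.6% and 52.4% in WT MET, 35.6% and 34.6% in RH VEH, and 35.6% in both RH MET libraries. All 4 WT values lie above all 4 RH values. The means were 47.0% ± 8.16 (SD, n = 4) in WT and 35.4% ± 0.494 (SD, n = 4) in RH, a difference of -11.6 ± 4.68 points (SE; limma adjusted p = 0.779). The interval ran over the gene's upper end in every library, and its inner edge lay 9.04 to 12.4 kb into the span in WT libraries and 13.0 to 13.2 kb into it in RH libraries. Among the 8595 genes called in at least 1 library, 3.08% had all RH values below all WT values and 0.163% the reverse, and 1 of 35 members fell in the first class and 0 in the second. Of these 35 members, 18 lay wholly inside intervals in all 8 libraries and could fall in neither class.

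The 3 members of early embryo and germ cells had low and variable intervals. Foxh1, the partner of Smad2 in Nodal signalling, was covered to 94.3% and 62.7% in WT VEH, 83.8% and 52.1% in WT MET, 89.1% and 0% in RH VEH, and 99.6% and 52.1% in RH MET. Its heights were 12 to 16, and its merged region also spans Kifc2 and Cyhr1. Foxr1 was covered to 16.1% in RH MET 2 alone, by an interval of 1.4 kb with height 9 over its start window. Foxr2, on the X chromosome, was covered to 30.6% to 89.0% in all 8 libraries, with the lowest value in RH VEH 1. The share of all X genes called was also lowest in that library, at 23.0%.

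Genotype and treatment were then compared across all genes. No member passed the limma test with Benjamini-Hochberg adjustment in any of the 6 contrasts for percent covered (35 members, smallest adjusted p = 0.602), summit height (28 members, smallest adjusted p = 0.627) or interval width (28 members, smallest adjusted p = 0.627). Of all 8595 genes fitted for percent covered, the share called was 0.14% for genotype under vehicle, 0.198% for metformin in RH, 0.303% for metformin in WT, 0.524% for genotype averaged over treatments, 0.465% for metformin averaged over genotypes and 0.384% for their interaction. For height, of 5436 genes, it was 0% for genotype under vehicle and metformin in WT, 0.0552% for averaged genotype, 0.0184% for metformin in RH, 0.0184% for averaged metformin and 0.0184% for the interaction, and for width it was 0% throughout. At an unadjusted p under 0.05 in at least 1 contrast stood 1 of 35 members for percent covered (Foxi2), 3 of 28 for height (Foxb2, Foxd2 and Foxa3) and 4 of 28 for width (Foxp4, Foxi2, Foxd4 and Foxa3). These are 2.86%, 10.7% and 14.3% of the members, against 12.2%, 20.8% and 15.5% of all genes fitted. For percent covered, 18 of the 35 members lay wholly inside intervals in all 8 libraries and so had no difference to test. Among the 8595 genes fitted, 591 did. The lower share of members for percent covered therefore does not show that the family varies less than other genes. For Foxp4 the width includes the second interval that touched its far end in 4 libraries. A group had 2 libraries, so a missed threshold does not show that values were equal.

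By calls alone, Foxp1 was the only member present in the WT VEH pair and absent from the RH VEH pair, 1 of 34 members called in these 4 libraries against 2.4% of 7829 genes. No member showed the reverse, as 0.434% of genes did. With metformin, 0 of 34 members were called in the RH MET pair and absent from the RH VEH pair (2.99% of genes), and 0 of 33 did so in WT (2.23% of genes). Losses with metformin were 0 in both genotypes (0.203% of genes in RH and 0.522% in WT). The 28 members called in all 8 libraries could not differ by calls, nor could 5436 of all genes. The same comparisons were made on percent covered. There the 18 members wholly inside intervals in all 8 libraries could not separate groups, nor could 591 of all genes. Low member counts therefore do not show that the family varies less than other genes. Both RH VEH values lay below both WT VEH values for 2 of 34 members (Foxn4 and Foxp1), against 17% of genes, and above them for 1 (Foxi2), against 3.08%. Both WT MET values lay above both WT VEH values for 3 of 33 members (Foxo1, Foxp1 and Foxi2), against 16.6% of genes, and below them for 0, against 6.67%. In RH, 0 of 34 members had metformin values above the vehicle values (12.7% of genes) and 0 had them below (4.2%). With 2 libraries against 2 an exact permutation cannot pass the threshold, so the counts above have no test. Over both genotypes, 0 of 35 members had all 4 metformin values above all 4 vehicle values (1.01% of genes) and 0 had them below (0.0931%).

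Summit heights as deposited were higher in the metformin libraries over all genes as well as over the members. Without centring on each library's median, the median metformin difference averaged over genotypes was 0.53 on the log2 scale for all 5436 genes and 0.57 for the members. All 28 members were higher, and 9 passed the test, or 32.1%, against 25.3% of all genes called higher. These were Foxj1, Foxq1, Foxb2, Foxd4, Foxo1, Foxd3, Foxd2, Foxo6 and Foxi3, with differences of 0.62 to 0.75 (limma adjusted p = 0.0395 to 0.0497). Relative to each library's median none passed. RH VEH minus WT VEH was -0.52 for members and -0.49 for all genes without centring. Heights have no stated scaling between libraries, and a difference in depth or immunoprecipitation cannot be told apart from a difference in the mark.

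Foxo proteins act within a signalling pathway, so its genes were read in the same way. Of 20 upstream regulators, 2 were called in all 8 libraries, 2 in 1 to 7 and 16 in none. The kinases Akt1 and Akt2 and the catalytic AMP-activated kinase subunit Prkaa1 carried no interval. The alternative subunit Prkaa2 was covered to 4.36% to 7.60% and the kinase Sgk1, which phosphorylates Foxo3, to 4.94% to 9.02% in all 8 libraries. Pik3cb, a PI3-kinase subunit, was called in 7 libraries and the acetyltransferase gene Crebbp in 1. Of 27 known Foxo target genes, 9 were called in all 8 libraries, 6 in 1 to 7 and 12 in none, with a median of 6.95% covered. Thus 33.3% of the targets and 10% of the regulators were called in all 8, against 24.8% of all genes, while 14.4% of all genes were called in 1 to 7 and 60.7% in none. Trim63 and Trib3, with heights of 13 to 18, were named after the values were seen. Trim63, a muscle ubiquitin ligase, was the 1 target called in the WT VEH pair and not in RH VEH (2.4% of 7829 genes). Trib3, a stress-induced pseudokinase, was the 1 target called in the RH MET pair and not in RH VEH (2.99% of 7885 genes). No regulator showed such a pattern. Klf2, a regulator of T cell quiescence, was covered to 100% in all 8. The means over libraries were 79.7% for Ccr7, a lymphocyte homing receptor, 75.2% for G6pc, a liver gluconeogenic enzyme, and 73.0% for Klf4, a monocyte and epithelial regulator. All RH values of G6pc, 46.2% to 63.8%, lay below all its WT values, 73.6% to 100%. Trim63 did so too, with 0% to 19.3% in RH and 34.5% to 68.9% in WT. Of 8595 genes, 3.08% showed this and 0.163% the reverse. Both patterns were seen after the values were inspected. The catalase gene Cat and the arrest gene Cdkn1b carried no interval. No gene of either list passed the limma test in any contrast (smallest adjusted p over the 3 readouts 0.726 for regulators and 0.194 for targets).

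As a check of the labelled cell type, marker genes were read, with the limit that a repressive mark reports no RNA. Of 10 progenitor markers, Cebpa, Flt3, Gata2 and Tal1 were called in all 8 libraries, Lmo2 and Runx1 in none and the others in part. Kit, by which the cells were enriched, was covered to 7.11% and 7.36% in WT VEH, 5.89% and 8.58% in WT MET, 0% in both RH VEH libraries, and 0.996% and 0% in RH MET. Kit thus separated the genotypes in the same direction as the Foxp1 window. Gata2, of the same list, separated them the other way, with 89.1% to 96.7% covered in WT and 98.2% to 100% in RH. The direction of Kit is the commoner one over all genes. Among the 8595 genes called in at least 1 library, 3.08% had all RH values below all WT values and 0.163% the reverse. Whether a different make-up of the enriched cells has a part in the values of Kit, Gata2 or Foxp1 was not tested. Of the markers of stroma and endothelium 3 of 5 were called in all 8, of B and T cells 3 of 5, and of mast cells and erythroid cells 0 of 5, with the same counts in every library. No marker gene passed the limma test (smallest adjusted p = 0.0587, for a progenitor marker).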

How the data were processed

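H3K27me3 was mapped by chromatin immunoprecipitation and sequencing in 8 libraries, and the 1 input library entered no comparison. Per the submitters' processing notes, bcl2fastq 2.20 and BWA 0.7.12 were used and the build is mm10. For the interval caller, its settings and any use of input reads, nothing is given in the sources used here. Per the file headers, the authors deposited intervals and summits for each library separately. Summit height is a whole-number score of the authors, deposited with no unit. Read depth is unknown, so no counting error could be given, and an absent interval may lie below the caller's limit.

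Gene spans and start windows came from RefSeq tables on GRCm38.p6. Foxl3 was not matched in them, and protein sequences were not used here. Percent of span covered was fitted for genes called in at least 1 library (8595), and log2 of the highest summit of the overlapping intervals, centred on the library median, and log2 of their total width for genes called in all 8 (5436). The planned summit inside the span was replaced by the summit of overlapping intervals and kept as an alternative. Width was added after the values were seen. A model of 4 group means was fitted with limma 3.58.1 (robust empirical Bayes) in R 4.3.3, with 6 contrasts and Benjamini-Hochberg adjustment over all genes at 0.05. Tables ran in Python 3.11.15 with pandas 2.3.3. On simulated tables for the genotype contrast, 91% of 100 genes changed by 1 in log2 height were called among 5436, and 44% of 100 genes changed by 20 points of percent covered among 8595. Of 100 genes lowered by 40 points, 54% were called. Only genes with a spread within groups were changed, and simulated percents had no upper or lower bound. These rates therefore do not apply to the 18 members at 100% in all 8 libraries.

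Named genes were all Foxo and Foxp members, members called in 1 to 7 libraries, members whose groups do not overlap in percent covered by at least 10 points, and up to 4 genes of the Foxo lists. Foxi2, Foxo1 and Foxp1 also separated groups of 2 libraries by less than that. Members and lists were chosen with earlier results of these data known. Replicate numbers were taken from the labels. The deviations of same-numbered libraries correlated at -0.035 to 0.19 in percent covered, -0.057 to 0.091 in height and -0.038 to 0.14 in width. Not every one was above 0.1, so the main fit did not pair the libraries by number. With 2 libraries a group these values cannot decide whether some same-numbered libraries share a batch. Single values of some genes that enter the counts are not reported here.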

Additional observations from a re-analysis of the deposited data

How the results depend on the processing

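The 23 lineage genes called in all 8 libraries and their median of 100% covered kept these values under every alternative that was run. All 28 members called in all libraries became 25 to 29 over the alternatives, and the 9 called in none became 9 to 12. With a minimum summit height of 15, the median percent covered was 0.634% for the other Foxo and Foxp genes and 21.2%, from 66.7%, for the early embryo and germ cell genes. In that setting 0 members were lost in RH VEH against WT VEH (Foxp1 no longer), 1 was gained with metformin in RH (Foxh1) and 2 in WT (Foxh1 and Foxp1), and 1 separated metformin from vehicle (Foxh1). With an equal number of intervals, the other Foxo and Foxp genes had a median of 1.11% and 2 members had all RH values below all WT values (Foxn4 and Foxp1). With spans extended by 1000 bp that median was 1.44%. With a call set at 10% of the span, 0 blood-expressed genes were called in all libraries and 0 members were lost in RH VEH.

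Leaving out 1 library at a time, the members lost in RH VEH against WT VEH numbered 1 to 2 and those gained 0 to 1, those gained with metformin 0 to 1 in either genotype, and those lost with metformin 0 to 2 in RH and 0 to 1 in WT. Members with all RH values below all WT values numbered 1 to 3, where 3 (Foxn4, Foxp1 and Foxp2) came without WT VEH 2, and members with all metformin values above all vehicle values 0 to 1 (Foxo1, without RH VEH 2). In the limma test of percent covered, 0 to 2 members passed in the contrasts of genotype under vehicle, metformin in WT, both averaged contrasts and the interaction, and 0 to 1 in metformin in RH. They include Foxn1 and Foxi2 without WT VEH 1, Foxi2 without WT VEH 2, Foxs1 without RH VEH 1 and Foxr1 without RH MET 1. Each of these had a spread of 0 within the groups that remained, and a group of 1 library is assumed to vary like the others. No member passed without any of the 8 libraries in height or width.

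Heights not centred gave 9 members for averaged metformin. With the summit required inside the span, 1 member (Foxp2) passed in metformin in RH, in WT and averaged (limma adjusted p = 0.00855, 0.00384 and 0.00019). There the summit of the start interval counted in the metformin libraries and the lower internal one in the vehicle libraries, so different intervals were compared. The share of all 3576 genes fitted in that setting that passed is not reported here. With a replicate block 0 members passed in any contrast or readout. Over all genes the percent covered calls per contrast, 12 to 45, were 5 to 28 with the block, 21 to 66 at the minimum height and 57 to 113 on log2 covered kb. The fit without a filter on genes could not be fitted. Read depth, which is unknown, limits every absence.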
